A study of Mus musculus with 24 samples.

Results

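The antioxidant and thiol defence genes are a set of 40 mouse genes, chosen by symbol for their known roles. They comprise superoxide and hydrogen peroxide enzymes, glutathione peroxidases, peroxiredoxins, the thioredoxin and glutaredoxin systems, enzymes that make and use glutathione, genes of the NRF2 axis, ferritins and an NADPH oxidase subunit. All 40 were rows of the count table, which held 37229 genes, and 38 passed the filter on low counts that left 15875 genes for testing. Mgst1, a microsomal glutathione transferase, had 0 counts in all embryos, and Gpx8, a glutathione peroxidase of the endoplasmic reticulum, had 35 counts, all in 1 split blastocyst pair (0.846 CPM, a counts-per-million unit with TMM scaling, in that pair).

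RNA was measured in 24 embryos of the ICR strain, all made by in vitro fertilization and grown to a preimplantation stage in 6% CO2 and 5% O2. Intact control embryos were taken as 4 8-cell embryos, 5 morulae and 3 blastocysts. Split embryos came from late 2-cell embryos whose blastomeres had been parted mechanically in G-PGD biopsy medium and then grown singly in a modified sodium hyaluronate gel, and they were taken as 6 morulae and 6 blastocysts. Each of these groups of 6 was made of 3 sister pairs, and the counts of both sisters were added so that a pair was 1 unit, which gave 18 units in all. Separation, the biopsy medium, solitary culture and the gel go together in these groups and cannot be told apart. Intact controls were grown alongside; whether they too were in gel was not given in the sources used here.

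Superoxide dismutases turn superoxide into hydrogen peroxide, which catalase, the glutathione peroxidases and the peroxiredoxins then remove. Glutathione peroxidases and peroxiredoxins draw electrons from NADPH by way of glutathione and glutathione reductase, or thioredoxin and thioredoxin reductase. The transcription factor NRF2, encoded by Nfe2l2, is held in check by KEAP1 and, once stabilised, binds antioxidant response elements in the promoters of many of these genes. Preimplantation embryos inherit glutathione and antioxidant transcripts from the oocyte and make their own after genome activation, and embryos in culture are sensitive to oxygen and to medium.

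Libraries held between 11.3M and 38.5M counts per embryo (M, mega). Per embryo, the control blastocysts were the shallowest (11.3M to 12.7M) and the 8-cell embryos the deepest (26.3M to 38.5M). The summed split pairs held 32.1M to 36.4M counts as morulae and 30.2M to 44.7M as blastocysts. They were thus deeper than control morulae (13.9M to 19M) and control blastocysts. The TMM scaling factors, which correct for library composition, were 1.17 to 1.31 in control blastocysts and 0.88 to 1.09 in the other groups. The summed level of 8 trophectoderm markers was 80.2 to 162 CPM at the 8-cell stage, 581 to 1020 in control morulae, 597 to 2060 in split morulae, 1800 to 2760 in control blastocysts and 4680 to 6030 in split blastocysts. The 6 markers of inner cell mass and epiblast lay at 297 to 461 CPM in control and 316 to 427 CPM in split blastocysts, and the 5 of primitive endoderm at 133 to 196 and 71.9 to 103 CPM. Markers of cumulus cells reached at most 0.708 CPM summed, with Amh, Inha, Fst and Fshr at 0 in every unit. Blood markers summed to 0.521 to 14.4 CPM in control and 15.8 to 28.2 CPM in split blastocysts, with Ptprc and Lyz2 at 0 in both. Pair 3 of the split morulae stood apart from the other pairs. Its sisters had 890 and 303 CPM of trophectoderm markers, against 1230 to 2400 CPM in the other 4 split morulae.

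The members' deposited transcripts-per-million values (TPM), which unlike CPM take transcript length into account, were summed for the 38 members in each unit. They made up 0.317% ± 0.0391 (SD, n = 4) of all TPM at the 8-cell stage, 1.05% ± 0.109 (n = 5) in control morulae, 1.16% ± 0.141 (n = 3 pairs) in split morulae, 1.28% ± 0.292 (n = 3) in control blastocysts and 2.15% ± 0.0513 (n = 3 pairs) in split blastocysts. The 3 split blastocyst pairs, at 2.11% to 2.2%, lay above the 3 control blastocysts, at 1.07% to 1.61%, and above every other unit. Without the ferritins Fth1 and Ftl1, the iron-storage subunits, the shares were 0.771% ± 0.0443 in control and 1.27% ± 0.0501 in split blastocysts.

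**Figure D1:**
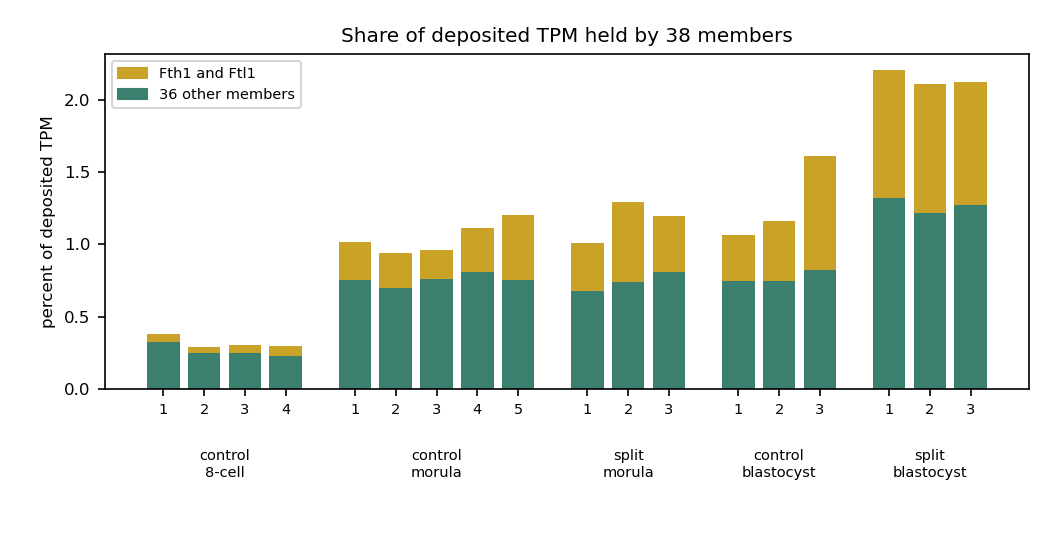
Share of all deposited TPM (percent, vertical axis) held by 38 antioxidant and thiol defence genes in each of 18 units, with the 2 ferritin genes stacked on the 36 other members. The 8-cell embryos sit between 0.292% and 0.375%, and the split blastocyst pairs, between 2.11% and 2.2%, above all other units.

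Ranked by mean TPM, the leading members at the 8-cell stage were Txn1, the cytosolic thioredoxin, at 423.2 TPM and Prdx1, a cytosolic peroxiredoxin, at 392.4 TPM. From the morula on the light chain ferritin gene Ftl1 led the set. It stood at 2072 TPM in control morulae (rank 61 of 15625 genes), 3194 in split morulae (rank 29), 3979 in control blastocysts (rank 22) and 7226 in split blastocysts (rank 7). Ftl1 and its processed copy Ftl1-ps1 are both rows of the table, and how reads matching both were assigned was not given in the sources used here, so the Ftl1 level is uncertain. The same holds for Gstp1 beside Gstp2 and Gstp3, for Prdx6 beside Prdx6b and for Akr1b8 beside Akr1b7 and Akr1b10, although each copy's total was below that of the member. In mean CPM, 29 of the 38 members were lowest at the 8-cell stage and 23 were highest in split blastocysts. This ranks group means whether or not the units overlap. The same count was not made over all genes, so it is not shown to be particular to the set.

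**Figure D2:**
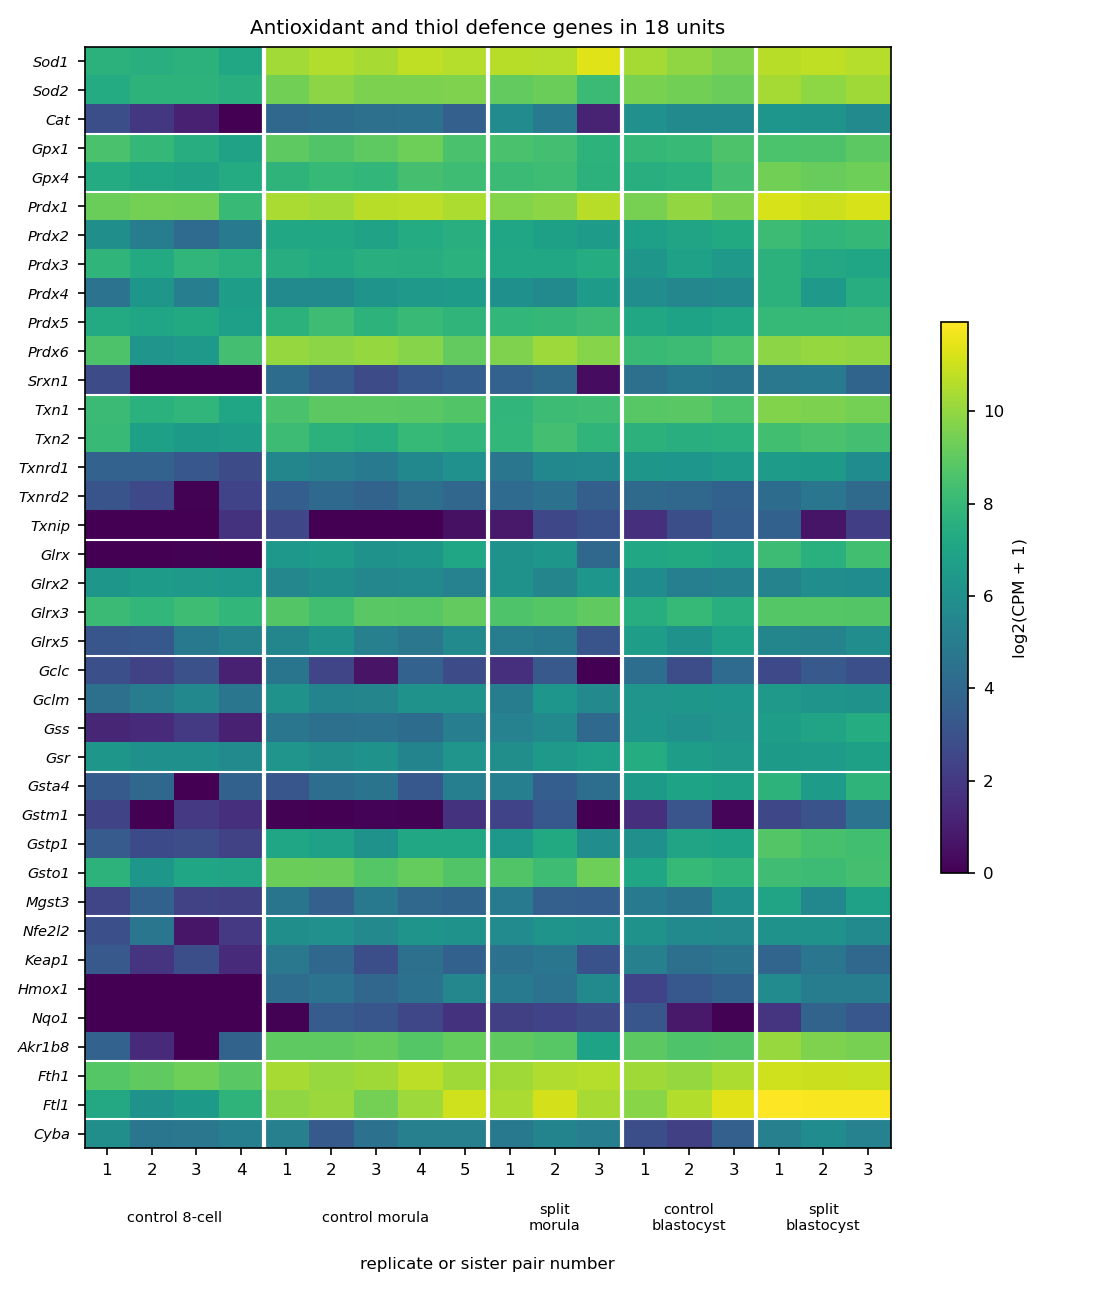
Level of each of 38 members (rows, in order of role) in each of 18 units (columns, with replicate or sister pair number), as log2 of CPM + 1. Hmox1, Nqo1 and Glrx are at or near 0 in the 8-cell columns, and the split blastocyst columns are highest for Ftl1, Prdx1 and Fth1.

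The members' promoters were searched for the antioxidant response element, which NRF2 binds, and for the overlapping AP-1 motif; whether either takes part in the changes reported here was not tested. RefSeq promoters (build GRCm38.p6, 250 bases before to 50 after a start) were found for 35 of the 40 members, and Prdx6, Gclc, Gsr, Gsta4 and Hmox1 had no entry. The element's core TGANNNNGC, on either strand, stood in a promoter of 14 of these 35 genes (40%), and in 45.0% of 27025 genes in all. The AP-1 motif TGANTCA stood in 4 of 35 (11.4%), which were Gstp1, Prdx1, Srxn1 and Glrx, and in 8.97% of all genes. In 3 of these the motif lay inside a core, as TGANTCAGC, which 8.57% of the members and 1.37% of all genes held; this longer motif was chosen after the matches had been seen. A match describes letters and is not a measured binding site. The windows below show 1 AP-1 match for each of these 4 genes. Of these, Gstp1 and Prdx1 were called higher both in control morulae against 8-cell embryos and in split against control blastocysts. The same holds for Sod2, Gpx4, Prdx5, Txn1, Glrx3 and Fth1, whose promoters held no AP-1 match. Srxn1, with the same letters as Gstp1, was called in no comparison, with standard errors above 1 log2 unit in each. It stood at 0 to 5.549 CPM in 8-cell embryos, 5.766 to 17.66 CPM in control morulae and 20.1 to 27.29 CPM in control blastocysts. Each window runs 5′ to 3′ on the gene's strand. Capitals mark the core that holds the AP-1 match in Gstp1, Prdx1 and Srxn1, and the AP-1 match itself in Glrx. A further AP-1 match, not shown, stood at -237 to -231 in Prdx1 and at -102 to -96 in Srxn1. The Gstp1 window is chr19:4037958-4038006 (minus strand, core at -74 to -66 from the start), the Prdx1 window chr4:116685446-116685494 (plus strand, core at -133 to -125 on the opposite strand), the Srxn1 window chr2:152105459-152105507 (plus strand, core at -45 to -37) and the Glrx window chr13:75839767-75839813 (plus strand, AP-1 match at -98 to -92).
Gstp1: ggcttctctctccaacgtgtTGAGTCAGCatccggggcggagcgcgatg
Prdx1: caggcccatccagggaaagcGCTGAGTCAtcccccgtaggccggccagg
Srxn1: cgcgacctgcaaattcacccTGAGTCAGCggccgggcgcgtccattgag
Glrx: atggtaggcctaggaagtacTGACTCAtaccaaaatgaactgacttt

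Control morulae were first set against control 8-cell embryos, which shows how the set behaves in intact development. Most of it rose: 26 members were higher, 1 was lower and 11 were not called, at an adjusted p under 0.05 (edgeR's quasi-likelihood test, Benjamini-Hochberg over all genes tested). That is 71.1% of the tested members, and 24.9% of all genes were called in this comparison (14.3% higher, 10.7% lower). The members' median log2 fold change was 1.49, and that of all genes 0.09. All morulae lay above all 8-cell embryos for 24 members and below them for 1, beside 11.1% and 10.6% of all genes. In whole embryos a change in the number of cells of a type and a change in RNA per cell cannot be told apart. All 5 genes of the NRF2 axis, all 3 superoxide and hydrogen peroxide enzymes, both tested glutathione peroxidases and both ferritins rose, along with 4 of 7 peroxiredoxin and sulfiredoxin genes and 3 of 5 of the thioredoxin system.

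The 4 largest rises were in members that were low or at 0 in 8-cell embryos. Hmox1, which encodes the inducible heme oxygenase, had no count in any 8-cell embryo and 17.9, 22, 14.5, 21.1 and 44.9 CPM in the 5 control morulae. Against a floor of 3 counts per library it was at least 230-fold higher (adjusted p = 2.18e-08). Nqo1, the quinone reductase, was also at 0 in the 4 8-cell embryos and reached 0.0587, 9.94, 8.15, 4.78 and 2.32 CPM in morulae, which is at least 48.3-fold higher (adjusted p = 0.00142). The morulae overlap for neither gene with the 8-cell embryos, although 1 morula held Nqo1 at a single count. Glrx, the cytosolic glutaredoxin that removes glutathione from protein thiols, had 1 count in the 4 8-cell embryos together. It lay at 82.2, 93.4, 66.7, 78.4 and 129.4 CPM in the morulae, a ratio of 10400 with a 95% counting interval of 1860 to 410000 (adjusted p = 8.47e-11). Akr1b8, an aldo-keto reductase of the aldose reductase family, stood at 12.4, 1.73, 0 and 12.9 CPM in 8-cell embryos and at 505.1, 493.5, 553.5, 439.3 and 552.8 CPM in morulae. That is a log2 rise of 6.23 ± 1.02 (SE; adjusted p = 0.000421).

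The enzymes that use or make glutathione did not all rise. Gstp1, the pi class glutathione transferase, rose from 9.71, 5.38, 6.01 and 3.98 CPM to 130.6, 113.7, 68.8, 134.7 and 136.4 CPM, or 18.6-fold (log2 4.22 ± 0.35, adjusted p = 2.65e-08). Gss, the synthetase of the last step of glutathione synthesis, rose from 1.45, 1.73, 3.09 and 1.15 CPM to 24.9, 20.1, 21.9, 17.4 and 32.9 CPM, or 12.7-fold (adjusted p = 5.99e-07). Groups of both genes lay far apart. Gclc, the catalytic subunit of the rate-limiting ligase, was low and scattered, at 1.15 to 6.67 CPM in 8-cell embryos and 0.538 to 23.8 CPM in morulae, and was not called (log2 1.05 ± 1.11). Its partner Gclm rose 1.91-fold, and Gsr, the reductase that regenerates glutathione, differed by a log2 of -0.01 ± 0.25. Gsto1, an omega class transferase, rose 3.85-fold, from a mean of 136.0 to 523.5 CPM, and Mgst3, a microsomal transferase, 3.01-fold, while Gsta4 and Gstm1 were not called.

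Most of the enzymes that remove superoxide and peroxides rose, by 1.76-fold to 8.2-fold. Sod1, the cytosolic copper-zinc superoxide dismutase, went from 200.1, 181.9, 202.5 and 135.3 CPM to 1256, 1523, 1330, 1747 and 1527 CPM, or 8.2-fold (log2 3.04 ± 0.19, adjusted p = 8.21e-10). Sod2, the mitochondrial manganese enzyme, rose 4.11-fold and the catalase gene Cat 6.71-fold, the latter from a mean of 2.54 to 17.1 CPM. Gpx4, which reduces lipid hydroperoxides in membranes, rose 1.85-fold and Gpx1 2.17-fold. Among the peroxiredoxins, the cytosolic Prdx1 rose 2.61-fold and Prdx2 4.17-fold, Prdx5 1.76-fold and Prdx6, a 1-cysteine form, 4.07-fold. The mitochondrial Prdx3 (log2 -0.19 ± 0.18) and Prdx4 of the endoplasmic reticulum (0.26 ± 0.37) were not called, and 3 of the 4 8-cell embryos had no count of Srxn1, the sulfiredoxin that repairs overoxidised peroxiredoxins. Txn1 rose 2.12-fold, Txnrd1, its reductase, 4.52-fold and the mitochondrial Txn2 1.65-fold. Txnip, which binds and inhibits thioredoxin, was at 0 in 3 of 4 8-cell embryos and 3 of 5 morulae and was not called.

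The regulators themselves also rose. Nfe2l2 went from 6.49, 24.4, 0.667 and 2.97 CPM to 60.5, 64.2, 48.6, 70.8 and 68.9 CPM (log2 2.86 ± 0.61, adjusted p = 0.00172), with no overlap. Keap1 went from 8.97, 2.53, 6.26 and 1.72 CPM to 26.5, 15.5, 6.38, 20.4 and 11.9 CPM, with overlap (log2 1.73 ± 0.59, adjusted p = 0.0362). The ferritin genes Fth1 and Ftl1 rose 2.56-fold and 9.5-fold. Glrx2, a mitochondrial glutaredoxin, was the member that fell, from 78.8, 94.1, 84.6 and 80.7 CPM to 44.7, 59.6, 45.4, 52 and 38.2 CPM (log2 -0.82 ± 0.25, adjusted p = 0.0182). Leaving out 1 embryo could end the calls of 5 members. Cat was lost without 8-cell embryo 2 or 3 or morula 1, 2, 3 or 4 (edgeR, adjusted p up to 0.114). Txn2 was lost without 8-cell embryo 2, 3 or 4 or morula 1, 2, 4 or 5 (0.137). Gclm was lost without 8-cell embryo 1 or 4 or morula 1, 4 or 5 (0.124), Mgst3 without 8-cell embryo 3 or 4 (0.349) and Keap1 without 8-cell embryo 2 or 4 or morula 1 or 4 (0.0913).

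**Figure D3:**
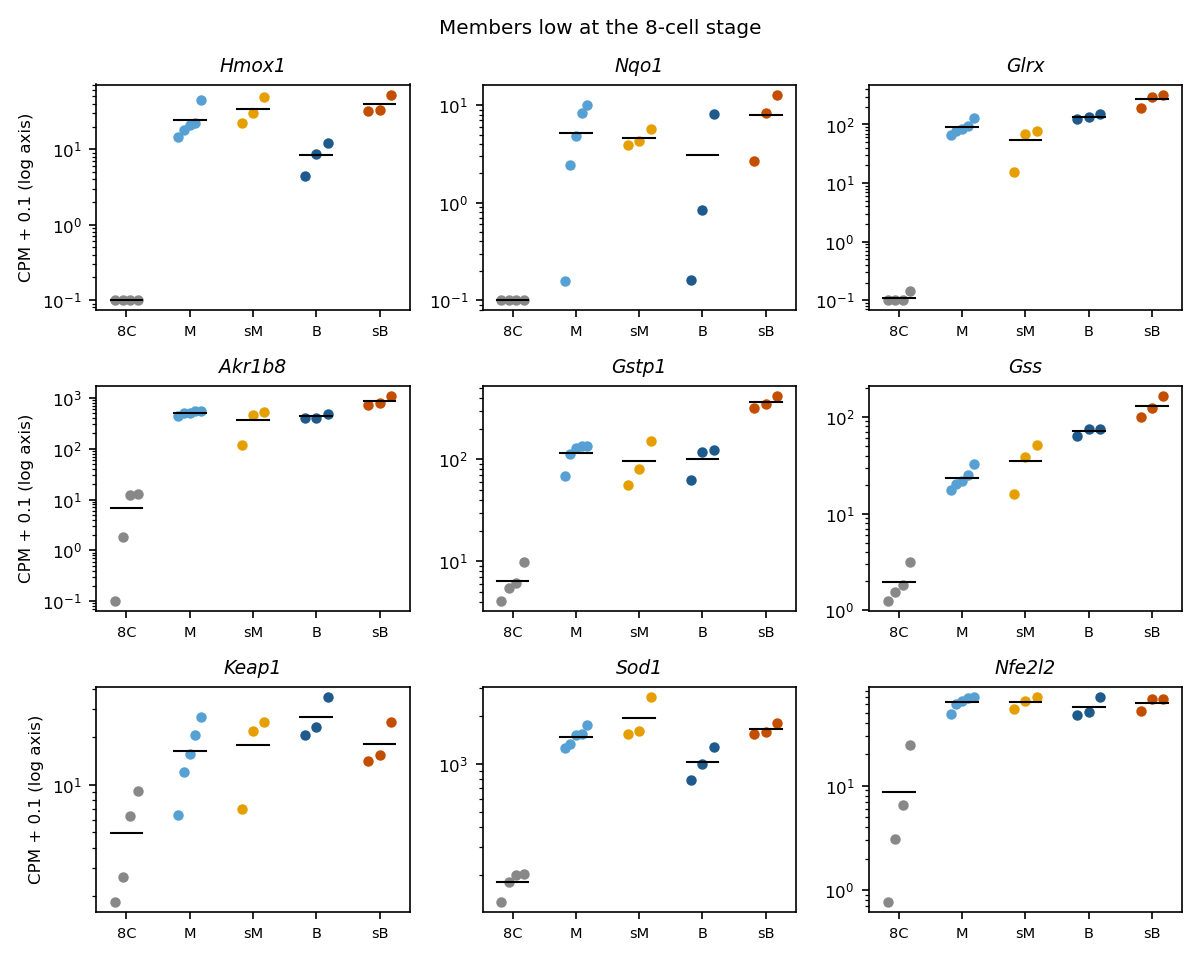
CPM + 0.1 (log axis) of 9 members in each unit of the 5 groups (8C control 8-cell, M control morula, sM split morula, B control blastocyst, sB split blastocyst), with the group mean as a line. The 9 were picked after their values had been seen. All 8-cell points of Hmox1 and Nqo1 sit at the offset, and the 8-cell points of 8 of the 9 members, all but Keap1, lie below every morula point.

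Between the control morula and the control blastocyst the set divided. Gss and Gsr rose, 7 members fell (Prdx1, Prdx3, Prdx5, Prdx6, Glrx3, Gsto1 and Cyba) and 29 were not called (edgeR, adjusted p). The 23.7% of members called stand beside 10.6% of all genes (3.12% higher, 7.46% lower). The median log2 fold change was -0.17 for the members and 0.11 for all genes. Blastocysts lay wholly above morulae for 7 members and wholly below for 7, beside 13.2% and 11.4% of all genes. The split depended on the scale: on log2 of deposited TPM + 1, 8 members were higher and 3 lower, the median of all genes moved to 0.37, and 76.2% of all genes called were higher in place of 29.5%. With limma-voom on single embryos it was 1 higher and 2 lower. On log2 TPM + 1 that is 11 of 38 members, beside 22.5% of all genes, and with limma-voom 3 of 38, beside 8.25%. The members' excess over all genes was thus smaller on log2 TPM + 1 and absent with limma-voom.

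Gss continued to rise, from the morula values above to 75.1, 64.3 and 74.6 CPM (3.04-fold, adjusted p = 0.00421). Gsr rose from 74.1, 58.8, 65.7, 40.5 and 74.4 CPM to 167.5, 99.2 and 85.1 CPM (1.87-fold, adjusted p = 0.0328). The enzymes they encode supply reduced glutathione, by synthesis and by reduction of the disulfide. Gclc (log2 0.56 ± 1.17) and Gclm (0.37 ± 0.32) were not called.

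The peroxiredoxins held 4 of the 7 falls. Prdx6 went from 1037, 931.1, 1047, 865.2 and 540.4 CPM to 270, 289.8 and 368.6 CPM (2.86-fold lower, adjusted p = 0.0313). Prdx3 went from 172.7, 153.3, 177.1, 170.2 and 196.1 CPM to 77.4, 112.5 and 86.8 CPM (1.88-fold lower, adjusted p = 0.00421). Prdx5 fell 1.78-fold and Prdx1 1.77-fold, the latter from 1237 to 1697 CPM over morulae to 711, 1003 and 767.2 CPM (adjusted p = 0.0407). For these 4 genes no blastocyst reached the lowest morula. Glrx3, a glutaredoxin of iron-sulfur cluster handling, fell from 419.2, 314.6, 461.5, 458.3 and 530.9 CPM to 171.6, 256.4 and 184.5 CPM (2.14-fold, adjusted p = 0.000327). Gsto1 fell from 616.9, 592.2, 442.2, 548.5 and 417.6 CPM to 132.3, 254.8 and 219.6 CPM (2.59-fold, adjusted p = 0.00256). Cyba, the membrane subunit shared by several NADPH oxidases, which make superoxide, fell 3.8-fold (adjusted p = 0.0126), with 9.28 CPM in the lowest morula and 11.7 CPM in the highest blastocyst. Hmox1 stood at 4.32, 8.63 and 11.9 CPM in blastocysts, below all morulae, and did not pass the test (log2 -1.54 ± 0.54, adjusted p = 0.0764).

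Glrx3 and Gsto1 kept their calls under all 20 alternatives. Without control blastocyst 1 the number of members called was 5 in place of 9, beside 6.28% of all genes in place of 10.6%. Leaving out 1 embryo could end the calls of Prdx1 (morula 1, 3, 4 or 5 or blastocyst 1 or 3) and Prdx6 (morula 1, 2 or 3 or any 1 blastocyst). The same holds for Gsr (morula 2, 3 or 4 or blastocyst 1) and Cyba (blastocyst 1 or 2).

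Split morulae did not differ detectably from control morulae in this set. No member was called (edgeR, adjusted p), beside 0.126% of all genes (0.0693% higher, 0.0567% lower). All 3 split pairs lay below all 5 control morulae for Sod2, Gpx1 and Txn1 and above them for no member, beside 3.71% and 3.54% of all genes (7.25% in either direction). The median log2 fold change was -0.01 for the members and 0 for all genes, with 19 members on either side of 0. DESeq2 on the same units called 2 of 37 members tested, which is near its 5.44% of all genes. Limma-voom on single embryos called 1 of 38, beside 1.01% of all genes.

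Sod2 stood at 540.4, 599.5 and 281.2 CPM in the split pairs and at 677.1, 931.4, 756.3, 755.9 and 784.8 CPM in control morulae (log2 -0.72 ± 0.20, adjusted p = 0.136 with edgeR, and 0.0187 with DESeq2 and 0.0386 with limma-voom). Txn1 stood at 228.2, 291.4 and 306 CPM against 365.4, 479.7, 481.4, 468.2 and 413.8 CPM (log2 -0.68 ± 0.20, adjusted p = 0.15 with edgeR and 0.0246 with DESeq2). The groups of both genes do not overlap. Gpx1 stood at 361.3, 329.5 and 209.7 CPM against 363.5 to 631.5 CPM (log2 -0.68 ± 0.28, adjusted p = 0.291). The regulators were not called, with Nfe2l2 at 53.5, 70.3 and 64.8 CPM (log2 0.01 ± 0.60) and Keap1 at 21.8, 24.6 and 6.93 CPM (0.14 ± 0.61), and these errors are wide.

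Pair 3 of the split morulae held several of the extreme values. Akr1b8 was at 217 and 24.7 CPM in its sisters and at 339 to 655 CPM in the other 4 split morulae. Glrx was at 7.78 and 22.2 CPM, against 51 to 96.1 CPM, and Cat at 0 and 2.5 CPM, against 14.6 to 69.9 CPM. In the other direction Sod1 was at 2910 and 2330 CPM, against 1380 to 1770 CPM, and Prdx1 at 1350 and 1880 CPM, against 743 to 1030 CPM. Gss differed between the sisters themselves, at 0.118 and 31.5 CPM. These genes were picked after their values had been seen. Without pair 3, too, no member was called, beside 0.0409% of all genes.

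Between split and control blastocysts, the members called in the fit of all 5 groups changed in 1 direction. Of the 38 members, 13 were higher, none was lower and 25 were not called (edgeR, adjusted p). That is 34.2% of the members, beside 4.74% of all genes (3.42% higher, 1.32% lower). Of all genes called, 72.2% were higher, and 45.5% on log2 TPM + 1 and 49.1% with limma-voom on single embryos. The median log2 fold change was 0.81 for the members and 0 for all genes, and 30 members lay above 0. The 3 pairs lay above all 3 controls for 22 members and below them for 1, Glrx5, beside 17.2% and 13.7% of all genes (31% in either direction). The 13 were Sod2, Gpx4, Prdx1, Prdx3, Prdx4, Prdx5, Prdx6, Txn1, Glrx3, Gstp1, Hmox1, Fth1 and Cyba. In this comparison the trophectoderm markers moved too, from 1800 to 2760 CPM in control to 4680 to 6030 CPM in split blastocysts, as did the primitive endoderm markers, from 133 to 196 to 71.9 to 103 CPM, and the blood markers, with 4 of 6 at 0 in controls and 2 of 6 in split pairs. Their part in the result was not tested.

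**Figure D4:**
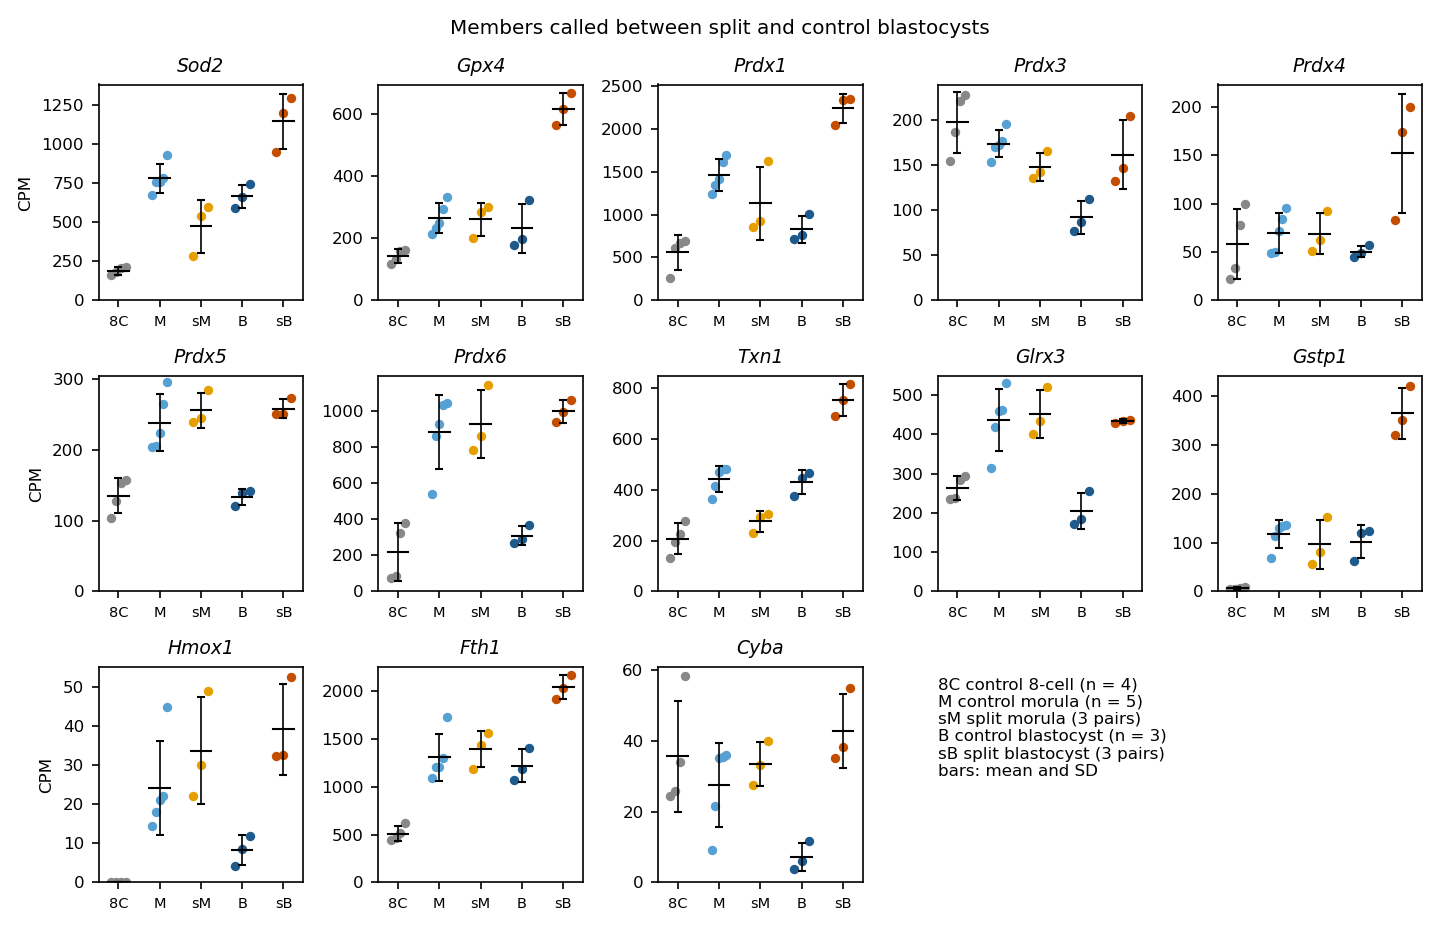
CPM (linear axes from 0) of the 13 members called between split and control blastocysts, in each unit of the 5 groups, with the group mean and SD. In all 13 panels the split blastocyst pairs lie above the control blastocysts, and for Prdx5 and Glrx3 they lie within the range of control morulae.

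The peroxiredoxins held 5 of the 13. Prdx1 stood at 711, 1003 and 767.2 CPM in control blastocysts and 2342, 2046 and 2332 CPM in split pairs, or 2.71-fold higher (log2 1.44 ± 0.28, adjusted p = 0.00311). Prdx5, found in mitochondria, peroxisomes and cytosol, stood at 138.6, 120.5 and 141.3 CPM against 250.8, 249.7 and 273.3 CPM (1.93-fold, adjusted p = 0.00616). The spread within each group was small beside the step between them. Prdx6 stood at 270, 289.8 and 368.6 CPM against 938.6, 1063 and 995.8 CPM (3.23-fold, adjusted p = 0.0468). Prdx4, at 57, 45.1 and 49.2 CPM against 199.7, 82.7 and 174.1 CPM, was 3.02-fold higher with a wide spread among split pairs (log2 1.59 ± 0.46, adjusted p = 0.047). Prdx3, at 77.4, 112.5 and 86.8 CPM against 204.7, 147.1 and 132.2 CPM, was 1.75-fold higher (adjusted p = 0.0381). Of the family Prdx2 did not pass, although its pairs, at 287.4, 229.1 and 246.2 CPM, lay above all controls, at 106.9, 124.4 and 152.9 CPM (adjusted p = 0.0804), and Srxn1 lay at 26, 29.9 and 13.4 CPM against 20.1, 27.3 and 24 CPM (log2 -0.04 ± 1.52).

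Gpx4 had the lowest adjusted p of the set in this comparison. It stood at 178, 197 and 323.2 CPM in control blastocysts and 667.6, 564.8 and 618.1 CPM in split pairs, 2.65-fold higher (log2 1.41 ± 0.24, adjusted p = 0.000942). Gpx1 was not called, at 247.5, 274.4 and 382 CPM against 379.4, 384.6 and 482.4 CPM (log2 0.46 ± 0.31). Sod2 stood at 742.1, 663.3 and 593.6 CPM against 1291, 951.1 and 1198 CPM (1.72-fold, adjusted p = 0.0444). Sod1, at 1272, 1002 and 789.1 CPM against 1589, 1792 and 1546 CPM, lay apart in every pair and missed the threshold (log2 0.69 ± 0.21, adjusted p = 0.0722). Cat differed by a log2 of 0.28 ± 1.04.

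In the thiol systems 1 gene of each kind was called. Txn1 stood at 447.1, 466.7 and 376.9 CPM in controls and 815.1, 751.6 and 689 CPM in split pairs (1.75-fold, adjusted p = 0.0333). The reductase Txnrd1 was not called, at 79.7, 75.8 and 91.6 CPM against 92.8, 88.7 and 54.6 CPM (log2 -0.07 ± 0.38). Glrx3 stood at 171.6, 256.4 and 184.5 CPM against 434.8, 437.5 and 428.3 CPM, which is 2.12-fold higher with almost no spread among the summed pairs (log2 1.09 ± 0.20, adjusted p = 0.00223). Its single split blastocysts lay at 380 to 492 CPM. Glrx, at 136.8, 149.1 and 122.7 CPM against 292.8, 188.9 and 321.8 CPM, was not called (log2 0.98 ± 0.42, adjusted p = 0.26). Glrx5, a mitochondrial glutaredoxin of iron-sulfur cluster assembly, was lower in the 3 pairs, at 43.5, 39.3 and 56.6 CPM against 97.2, 67.5 and 111.7 CPM, and was not called either (log2 -0.99 ± 0.55). Txnip was low and scattered in both groups, at 2.08, 6.2 and 10.7 CPM against 11.8, 0.615 and 3.6 CPM.

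Among the transferases Gstp1 stood at 63.2, 122.8 and 118.9 CPM in controls and 421, 351.3 and 320.1 CPM in split pairs, 3.58-fold higher (log2 1.84 ± 0.37, adjusted p = 0.00389). Gsta4, Gstm1, Gsto1 and Mgst3 all lay above 0 without a call, with log2 values of 0.62 to 1.76. None of the 4 genes of glutathione synthesis and reduction was called. Gclc lay at 18.9, 6.07 and 17 CPM in controls and 5.22, 9.07 and 6.61 CPM in split pairs (log2 -1 ± 1.34), Gclm differed by -0.02 ± 0.36, Gsr by -0.26 ± 0.31 and Gss, higher in every pair, by 0.87 ± 0.41 (adjusted p = 0.323).

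Of the NRF2 axis, Hmox1 was called: 4.32, 8.63 and 11.9 CPM in controls and 52.6, 32.2 and 32.6 CPM in split pairs, 4.72-fold higher (log2 2.24 ± 0.59, adjusted p = 0.033). Nfe2l2 itself stood at 69.8, 51 and 47.5 CPM against 67.1, 67.3 and 51.3 CPM (log2 0.14 ± 0.68), and Keap1 at 35.7, 20.5 and 23 CPM against 14, 24.5 and 15.4 CPM (log2 -0.55 ± 0.68). Both pairs of groups overlap. Akr1b8 was higher in all pairs, at 1102, 786.2 and 709.6 CPM against 482.5, 404.7 and 410.9 CPM, without passing (log2 1.00 ± 0.95), and Nqo1 ranged over 0.061 to 8.12 CPM in controls and 2.56 to 12.7 CPM in pairs. Fth1, the ferritin heavy chain, stood at 1191, 1069 and 1407 CPM against 2173, 2033 and 1922 CPM (1.67-fold, adjusted p = 0.0169). Ftl1 stood at 909.2, 1500 and 2653 CPM against 3894, 3587 and 3642 CPM (log2 1.14 ± 0.45, adjusted p = 0.215), with a wider spread among controls. A pair sums both sisters and a control is a single embryo, so these spreads are not of like units. Single split blastocysts lay at 2916 to 4353 CPM. Cyba stood at 6.18, 3.84 and 11.7 CPM against 35.3, 54.9 and 38.3 CPM, 5.91-fold higher and the largest fold among the 13 (log2 2.56 ± 0.54, adjusted p = 0.00549).

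Taken singly, the same sisters that make up the called sums gave the spread behind them. For Gpx4 the 6 split blastocysts lay at 519 to 780 CPM with a median of 599, and the controls at 187 to 344 CPM. For Cyba they lay at 15.7 to 94 CPM and the controls at 4 to 12.5 CPM. Other called members lay closer: for Prdx3 only 5 of the 6 lay above all controls, at 95.2 to 230 CPM against 81.4 to 117 CPM. For Prdx4 the lowest split blastocyst lay at 60.1 CPM and the highest control at 59.9 CPM. These values come from single embryos scaled on their own and so differ slightly from those of the summed pairs. Between sisters, the median absolute log2 difference over the members was 0.21, 0.55 and 0.3 in the 3 blastocyst pairs, and 0.5, 0.68 and 0.47 over all genes tested. In the morula pairs it was 0.59, 0.37 and 0.58, beside 0.62, 0.59 and 0.79.

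Gpx4, Prdx1, Glrx3 and Gstp1 kept their calls under all 18 alternatives, with adjusted p of at most 0.0127, 0.0283, 0.0254 and 0.0394. Prdx5 lost its call with blastomere 1 of each pair alone, and Cyba with blastomere 2 alone and with limma-voom on single embryos. A fit of the compared groups alone called 19 members higher and 1 lower, beside 15.7% of all genes. On log2 of deposited TPM + 1, 7 members were called, all higher, beside 5.79% of all genes. The count was 7, 7 and 8 without control blastocyst 1, 2 or 3, and 6, 9 and 8 without split pair 1, 2 or 3. With 1 unit left out, 2.37% to 3.22% of all genes were called, in place of 4.74%. Txn1 and Prdx6 lost the call without any 1 of the 6 units, Sod2 and Prdx4 without any but split pair 2, Hmox1 without any but control 3, Prdx3 without control 1 or 3 or pair 1 or 2, and Fth1 without control 1 or 2 or pair 1.

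The stages were then compared directly, by testing whether the split-minus-control difference was the same in blastocysts and morulae. It was larger in blastocysts for 5 members, and for none smaller (edgeR, adjusted p). These 5 make 13.2% of the members, beside 1.64% of all genes (1.37% larger, 0.265% smaller). Of all genes called, 83.8% were larger here and 39.5% on log2 TPM + 1. The median difference in log2 fold change was 0.77 for the members and 0.05 for all genes. The 5 were Gstp1 (2.12 ± 0.49, adjusted p = 0.0294), Prdx1 (1.80 ± 0.38, adjusted p = 0.0146), Sod2 (1.51 ± 0.30, adjusted p = 0.0114), Txn1 (1.49 ± 0.29, adjusted p = 0.0107) and Gpx4 (1.43 ± 0.32, adjusted p = 0.0236).

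In all 5 the split effect was at or under 0 in morulae and above 0 in blastocysts. Txn1 differed by -0.68 in morulae and 0.80 in blastocysts, and Sod2 by -0.72 and 0.78. Gpx4 differed by -0.02 and 1.41. The other 8 members called in blastocysts alone, among them Cyba (difference 2.28 ± 0.70, adjusted p = 0.115), Glrx3 (1.04 ± 0.27, adjusted p = 0.0546) and Hmox1 (1.75 ± 0.77, adjusted p = 0.296), are not shown to differ between the stages. Leaving out split morula pair 3, or split blastocyst pair 1 or 3, gave 3 members, and leaving out control blastocyst 1 gave 2. Beside these, in order, 1.12%, 0.69%, 0.739% and 0.626% of all genes were called. Sod2 and Txn1 were called with any 1 unit left out, Prdx1 with any but control blastocyst 1. Gpx4 lost its call without split morula pair 3, control blastocyst 1 or 2 or split blastocyst pair 1 or 3, and Gstp1 without control morula 1 or 4, split morula pair 1 or 3, control blastocyst 1 or 3 or any 1 split blastocyst pair. On log2 of deposited TPM + 1, none of the 5 was called, and 0.73% of all genes were.

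**Figure D5:**
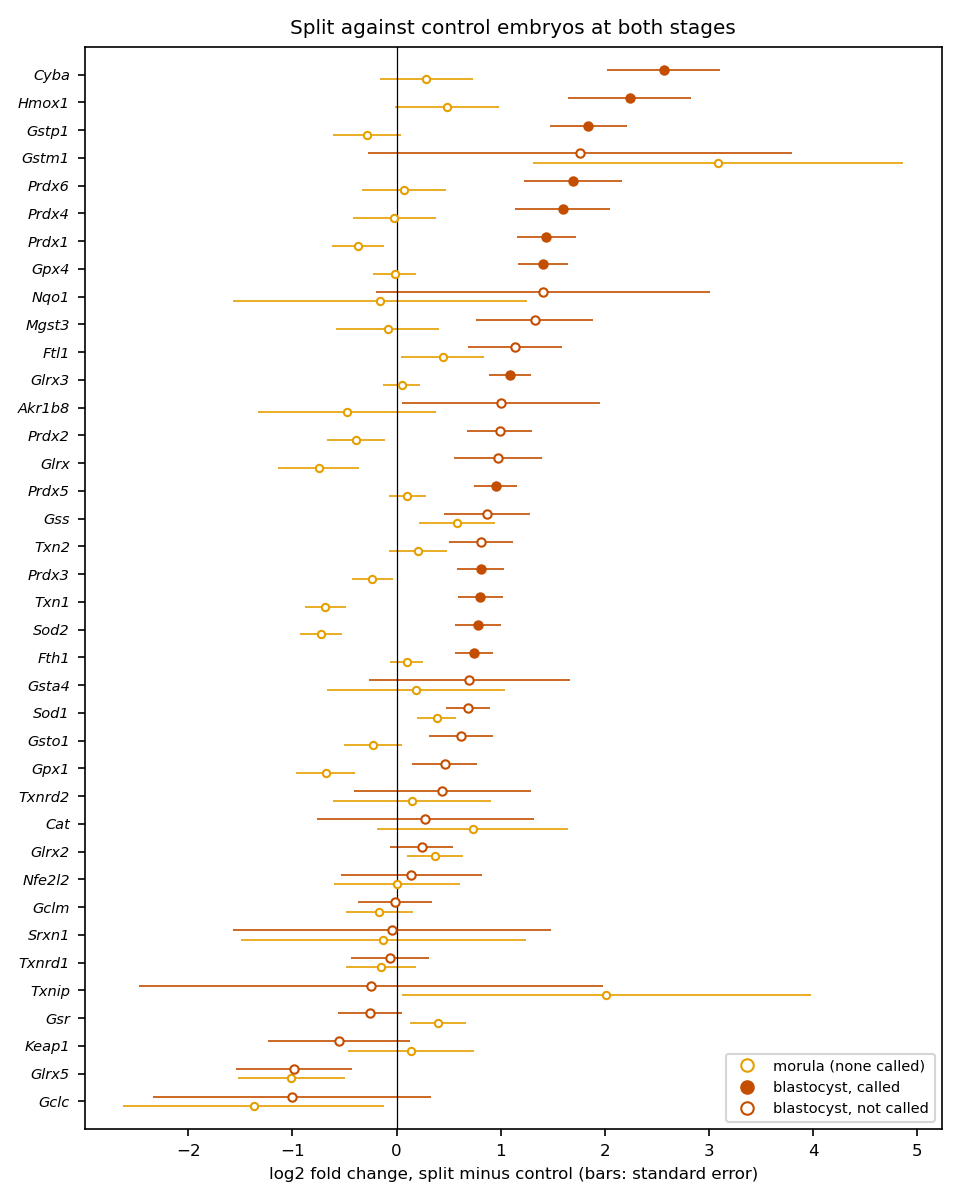
Log2 fold change of split against control embryos (horizontal axis) with its standard error for 38 members, at the morula and at the blastocyst stage, sorted by the blastocyst value. Blastocyst points are filled for the 13 called members and lie to the right of 0 for 30 of the 38, and morula points scatter around 0 with a median of -0.01.

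Within the split embryos, blastocysts exceeded morulae in 9 members and fell below them in none (edgeR, adjusted p). These are 23.7% of the members, beside 4.17% of all genes (1.22% higher, 2.95% lower). The direction of that background turned with the scale: 29.3% of the genes called were higher here, 62.2% on log2 TPM + 1 and 73.2% with limma-voom on single embryos. The median log2 fold change was 0.86 for the members and 0.05 for all genes. All blastocyst pairs lay above all morula pairs for 16 members and below them for none, beside 16.6% and 10.8% of all genes (27.4% in either direction). The 9 were Mgst3, Glrx, Gstp1, Gss, Txn1, Sod2, Gpx4, Prdx2 and Prdx1. This comparison uses the same split units as those above.

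Mgst3 had the largest fold, from 29.1, 11.5 and 10.9 CPM in split morula pairs to 125.5, 46.5 and 114.2 CPM in split blastocyst pairs (5.55-fold, adjusted p = 0.0154). Glrx went from 67.5, 78.1 and 15.1 CPM to 292.8, 188.9 and 321.8 CPM (5-fold, adjusted p = 0.00332). Gstp1 went from 80.7, 151.5 and 56.1 CPM to the blastocyst values above (3.79-fold, adjusted p = 0.00377), and Gss from 38.4, 50.7 and 16 CPM to 100.6, 123.8 and 165.9 CPM (3.71-fold, adjusted p = 0.0103). Txn1 rose 2.73-fold (adjusted p = 0.000409), Sod2 2.42-fold (adjusted p = 0.00171) and Gpx4 2.35-fold (adjusted p = 0.00356). In the intact embryos the corresponding log2 values from morula to blastocyst were -0.04 for Txn1, -0.23 for Sod2 and -0.19 for Gpx4.

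Several members that fell between control morulae and control blastocysts were not called between the split stages; the difference between split and intact embryos in this step is the same contrast as the stage difference above. Prdx6 averaged 929.6 CPM in split morulae and 999.1 CPM in split blastocysts (log2 0.10 ± 0.46), Prdx5 255.8 and 257.9 CPM (0.01 ± 0.20) and Glrx3 452 and 433.5 CPM (-0.06 ± 0.20). Their control means were 884.1 and 309.5 CPM for Prdx6, 238.1 and 133.5 CPM for Prdx5 and 436.9 and 204.2 CPM for Glrx3. The 3 control blastocysts enter both the fall in intact embryos and the rise in split blastocysts, so these 2 results are not independent. Without split morula pair 3 the number of members called between the split stages was 6, with Prdx2, Gss and Mgst3 lost, and without split blastocyst pair 3 it was 5. All genes were called at 2.47% and 1.71% in these fits. Prdx2 was also lost without split morula pair 2 or split blastocyst pair 1, 2 or 3, Mgst3 without split morula pair 2 or split blastocyst pair 1 or 3, Gss without split blastocyst pair 3, and Prdx1 without split morula pair 1 or 2 or split blastocyst pair 1, 2 or 3.

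Replicate spread, estimated for each gene over all 5 groups together, entered every test. Over members with a mean of at least 10 CPM in the group, the median coefficient of variation between units was 35.9% at the 8-cell stage, 22.2% in control morulae, 31.4% in split morulae, 18.1% in control blastocysts and 15.3% in split blastocysts. A split unit sums both sisters and a control unit is a single embryo, so split and control values are not of like units. Gclc, Txnip, Gstm1, Nqo1, Srxn1 and Txnrd2 lay below 30 CPM in every unit. Their standard errors were 0.74 to 2.99 log2 units in the comparisons above, so that only very large changes could be called in this fit. A standard error also takes in the spread of groups outside its comparison. Akr1b8 was not called between control blastocysts, at 404.7 to 482.5 CPM, and split pairs, at 709.6 to 1102 CPM. Its 8-cell embryos, at 0 to 12.85 CPM, entered the same estimate of spread.

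A wider list of 87 other redox genes, of which 78 were tested, served as neighbouring pathway genes. From 8-cell embryo to control morula 22 of the 78 rose and 6 fell (35.9%, beside 24.9% of all genes, median log2 fold change 0.87). The largest rises were in Hagh, a glyoxalase that releases glutathione, and the transferase genes Gsta3 and Gstm2. All 3 were at 0 in 8-cell embryos and at least 106-fold, 69.5-fold and 23.5-fold higher in morulae. From control morula to control blastocyst 1 rose and 7 fell, and the 10.3% called is close to the 10.6% of all genes. The largest falls were in Ncoa4, the ferritin autophagy receptor (24.1 to 4.97 CPM), Cth, the last enzyme of cysteine synthesis (66.5 to 14.1 CPM), and Ccs, the copper chaperone of Sod1 (123.7 to 28.4 CPM).

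Between split and control morulae 1 of the 78 was called (1.28%, beside 0.126% of all genes). This was Slc3a2, the heavy chain of amino acid exchangers that include the cystine carrier, at a mean of 405.4 CPM in split and 86 CPM in control morulae (4.71-fold, adjusted p = 0.0459), a call lost without any 1 control morula or without split morula pair 3 (adjusted p up to 0.411). Between split and control blastocysts 4 rose and 1 fell (6.41%, near the 4.74% of all genes, median 0.32). Taldo1, an enzyme of the pentose phosphate pathway that supplies NADPH, averaged 268.3 against 76.2 CPM (3.52-fold, adjusted p = 0.000566). Hmox2, the constitutive heme oxygenase, averaged 69 against 22.2 CPM (3.1-fold, adjusted p = 0.00779), Ccs 79.4 against 28.4 CPM (2.79-fold, adjusted p = 0.0356) and Txndc9, a thioredoxin-like gene, 467.9 against 259.3 CPM (1.8-fold, adjusted p = 0.00358). Bach1, which represses Hmox1 and other NRF2 targets, fell to 70.4 from 146.2 CPM (2.08-fold, adjusted p = 0.0328). In the difference of split effects 2 of the 78 were called (2.56%, near the 1.64% of all genes). These were Selenok, a selenoprotein of the endoplasmic reticulum, and Txndc9. Their split effect was larger in blastocysts than in morulae (by 1.17 and 1.12 on the log2 scale, edgeR, adjusted p = 0.0123 and 0.0124). Both lost the call on all 3 TPM scales and with blastomere 1 of each pair alone, and Txndc9 also with limma-voom (adjusted p up to 0.0862 for Selenok and 0.194 for Txndc9). From split morula to split blastocyst 2 rose and 3 fell (6.41%, near the 4.17% of all genes). Txndc17, a thioredoxin-like reductase, rose 2.83-fold, Cth fell 4.18-fold and Tfrc, the transferrin receptor that brings iron into cells, fell from 409.4 to 40.1 CPM (10.2-fold, adjusted p = 0.000284). Taldo1 and Tfrc kept their calls under all 18 alternatives. Left-out units ended the calls of Bach1 (any 1 of the 6), Ccs (control 1 or 2, split pair 1 or 2) and Hmox2 (control 3) in blastocysts, of Cth (split morula pair 3, split blastocyst pair 1 or 3) and Txndc17 (split morula pair 3) between the split stages, and of Txndc9 (control blastocyst 1) in the stage difference.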

How the data were processed

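RNA of single embryos was made into Smart-seq2 libraries from an oligo(dT) primer with template switching and sequenced on an Illumina instrument, per the labels. The deposited counts are reads per gene; FastQC, MultiQC, cutadapt, HISAT2, featureCounts, edgeR and build GRCm39 stand without version or role in the submitters' processing notes. Annotation release, strand setting and treatment of multi-mapping reads are not given in the sources used here. The TPM values were computed by the authors and deposited for 15625 genes, all of them with 10 or more counts in no fewer than 3 of the embryos. They served for levels between genes and for alternatives, on log2 of TPM with a pseudocount of 1 or 0.1.

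Counts of sisters were summed, giving 18 units. A model with 1 mean for each of the 5 groups was fitted to all genes passing filterByExpr (15875) with edgeR 4.0.16 in R 4.3.3, with TMM scaling and the robust quasi-likelihood F test (13 residual degrees of freedom). Benjamini-Hochberg adjustment ran over all genes tested, with calls at an adjusted p under 0.05. A standard error is the absolute log2 fold change over the root of F. Alternatives used DESeq2 1.42.0 and limma 3.58.1. Samples were grouped by the labels, and no sample was left out. No 2 libraries held identical counts. The p-values measure the spread between units of 1 study.

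Members and gene lists were chosen with earlier results of these data known. Values unit by unit were given by rule for members called between split and control blastocysts or between stages in the split effect, for up to 6 members with the largest called change in each stage comparison whose units do not overlap, and for Sod1, Gpx4, Prdx1, Txn1, Gclc, Gstp1, Hmox1, Nfe2l2, Keap1 and Txnip. Single values of other members (among them Akr1b8 beyond the morula, Gpx1, Prdx2, Srxn1, Txnrd1, Glrx2, Glrx5, Ftl1 and Cat) were chosen after they had been seen. Of the other redox genes, those called in a split comparison and up to 3 with the largest called change per stage comparison were named.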

Additional observations from a re-analysis of the deposited data

Results flagged for a closer look

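For 5 values of members, 1 embryo of its group lay far from the others, out of 48 sets of values tested. Chance flags about 1 in 20 where values are normally spread. Where all other embryos are at 0 any count is flagged, so that rate does not hold there. Hmox1 stood at 44.88 CPM in control morula 5, against 14.53 to 22 CPM in the other 4. Mgst3 stood at 11.88 CPM in 8-cell embryo 2, against 3.81 to 4.634 CPM. Txnip stood at 2.394 CPM in 8-cell embryo 4, with 0 in the others, and at 4.752 CPM in control morula 1, against 0 to 0.4632 CPM. Glrx stood at 0.04171 CPM in 8-cell embryo 3, which is a single count, with 0 in the others.

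For 7 genes the split-minus-control difference was larger in blastocysts than in morulae by a test of the difference itself (edgeR). The share called was 13.2% of the tested members and 2.56% of the tested other redox genes, beside 1.64% of all genes. On the log2 scale the difference was 2.123 for Gstp1, 1.804 for Prdx1, 1.505 for Sod2, 1.488 for Txn1 and 1.426 for Gpx4 among the members, and 1.174 for Selenok and 1.121 for Txndc9 among the other redox genes. The trophectoderm marker sum differed between split and control blastocysts as well, and its part in these values was not tested.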

How the results depend on the processing

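No called value changed sign under any alternative run: of 63 calls, each recomputed under up to 26 alternatives (1272 values), 1018 values kept the call and 254 lost it, and 28 calls were never lost. Counts of members called are given against those of the report. From control morula to control blastocyst (9), limma-voom on single embryos with the pair as a random effect gave 3, blastomere 1 of each pair alone 5 and a fit of the compared groups alone 15. The share of all genes called was 8.25%, 8.07% and 19% in these fits, in place of 10.6%. On log2 TPM, the split of the member count was 8 higher and 3 lower with a pseudocount of 1, 5 and 3 with 0.1, and 9 and 3 over genes with a mean TPM of at least 1. Beside these, 22.5%, 17.8% and 27.7% of all genes were called. Between split and control morulae (0), DESeq2 gave 2 and limma-voom 1, beside 5.44% and 1.01% of all genes. Between split and control blastocysts (13), blastomere 1 alone gave 7, blastomere 2 alone 6, the compared groups alone 20 (19 higher, 1 lower), and log2 TPM + 1, log2 TPM + 0.1 and a mean TPM of at least 1 each 7. The share of all genes called was 3.52%, 3.93%, 15.7%, 5.79%, 4.71% and 7.54% in that order, in place of 4.74%. Between the split stages (9), treating each embryo as its own sample gave 14 and limma-voom 18. All genes were called more often as well, at 14.1% and 18.5% in place of 4.17%. For the difference of split effects (5), DESeq2 gave 10, blastomere 1 or blastomere 2 alone 3, and the TPM scales 0, 0 and 1. The share of all genes called was 6.37%, 0.879%, 1.57%, 0.73%, 0.461% and 1.21% in that order, in place of 1.64%. Limma-voom moved the median log2 fold change of all genes to 0.41, -0.36, -0.27, 0.51 and 0.23 in these 5 comparisons, in order. Of the other redox genes, the counts ranged over all alternatives from 24 to 33, 3 to 18, 0 to 8, 3 to 11, 3 to 30 and 0 to 10 in the order of the 6 comparisons, starting with the 8-cell stage. In the first 3 of these the share of all genes called ranged from 14.9% to 36.5%, 6.28% to 27.7% and 0.0252% to 5.44%. In the last 3 it ranged from 2.37% to 15.7%, 1.71% to 18.5% and 0.461% to 6.37%. The cause of these shifts was not tested.

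Leaving out 1 unit at a time gave 23 to 27 members from 8-cell embryo to morula, 5 to 9 from control morula to control blastocyst, 0 in each case between split and control morulae, 6 to 9 between split and control blastocysts, 5 to 8 between the split stages and 2 to 6 for the difference of split effects. In the same order, the share of all genes called was 20.9% to 23.3%, 6.28% to 9.65%, 0.0252% to 0.297%, 2.37% to 3.22%, 1.71% to 3.68% and 0.626% to 1.42%. With the replicate number as a block, the counts were 24, 6, 0, 7, 8 and 3 in the order of the 6 comparisons above. Beside these, 20.5%, 8.33%, 0.126%, 4.28%, 3.77% and 1.06% of all genes were called. Same-numbered units of 2 groups correlated by only -0.03 to 0.08 in their deviations from the group means, so that the numbers do not pair the samples. Gclc, Txnip, Gstm1, Nqo1 and Srxn1, all at low counts, had standard errors above 1 log2 unit in each comparison. Of the few genes called between split and control morulae, 55% were higher in the report's fit, 76.9% on log2 TPM + 1 and 11.9% with limma-voom.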
